A study of Canis lupus familiaris with 6 samples.

Results

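CD74 is the invariant chain of the major histocompatibility complex (MHC), the protein complex that displays peptides to T cells. It holds newly made class II molecules together, keeps their groove closed on the way to the endosome, and at the cell surface also serves as the receptor of the cytokine MIF. CIITA is the co-activator that switches on the class II chains and CD74. The other 4 genes belong to class I presentation: B2M is the light chain of class I molecules, TAP1 and TAP2 form the pump that carries cytosolic peptides into the endoplasmic reticulum, and TAPBP (tapasin) tethers class I molecules to that pump. Class I is found on nearly all nucleated cells, whereas class II is typical of professional antigen-presenting cells and appears in epithelial cells mainly under interferon gamma.

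The 6 genes CD74, CIITA, B2M, TAP1, TAP2 and TAPBP were selected on measured values of these same arrays, with CD74 as the starting point because of its ratio of co-culture over monoculture. All 12 probes on the array that carry one of the 6 gene names were used, of 43603 probes and 13685 gene symbols in all. Because the choice used that ratio, the ratios of the 12 probes are given as a description, with no test.

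Canine mammary tumor cells of 3 established lines were studied: P114, from an anaplastic cancer, CMT-U27, from a simple carcinoma, and CMT-U309, from a spindle cell tumor. Cells of each line were grown alone (monoculture) or in wells with inserts holding myeloid-derived suppressor cells (MDSCs), which were sorted from the blood of healthy dogs as Gr1-, CD11b- and CD33-positive cells. The sample labels give a co-culture of at least 72 h and the methods of the study give 48 h. RNA of both cultures of a line was hybridised to the same 2-colour array, and a repeat array carried the same RNA with the dyes exchanged (array 1 has the co-culture in Cy5, array 2 in Cy3), which made 6 arrays and 12 channels. The 2 arrays of a line hold 1 pair of cultures, so n is 3 lines and no line has a replicate of its own. Each line lay on a slide of its own, and line and slide cannot be told apart. In bulk RNA, fewer cells of a kind and less RNA per cell cannot be told apart.

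The arrays differed in how well the dye-exchanged pair matched. Across 40874 probes the ratios of co-culture over monoculture of array 1 and array 2 correlated with r = 0.262 in CMT-U27, with r = -0.0926 in CMT-U309 and with r = -0.393 in P114, whose 2 arrays thus opposed each other. The share of probes well above background (the scanner software's own call) ran from 53.0% to 81.0% of a channel. Ratios of P114 are therefore given array by array, and counts over the 3 lines also without P114. Levels below are the scanner's processed signal scaled to a common median, in arbitrary units, and are compared between lines and cultures for the same probe only.

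A choice of 5 of the 12 probes is shown here. They are the only CD74 probe, 2 CIITA probes of which 1 lay near background everywhere, and 1 probe each of TAPBP and TAP2. The TAPBP probe shown did not share the larger TAPBP difference, and the TAP2 probe shown is not one of the overlapping pair. CIITA probe 3 and TAPBP probe 2, on which results below rest, are not shown. They are 60-base oligonucleotides, numbered within a gene along its transcript, with positions in the dog genome build canFam2 as the files give them.
CD74 probe: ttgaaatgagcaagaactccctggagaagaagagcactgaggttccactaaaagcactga
CIITA probe 1: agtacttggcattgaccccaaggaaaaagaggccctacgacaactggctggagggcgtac
CIITA probe 2: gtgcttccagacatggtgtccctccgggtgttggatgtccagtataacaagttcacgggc
TAP2 probe 1: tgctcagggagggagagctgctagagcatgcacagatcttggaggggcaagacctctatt
TAPBP probe 1: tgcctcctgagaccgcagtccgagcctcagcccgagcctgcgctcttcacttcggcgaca
The CD74 probe maps to chr4:61899122-61900202 on the plus strand, a stretch of 1081 bases, so that its 60 bases cross at least 1 intron. CIITA probe 1 lies at chr6:34829967-34830026, CIITA probe 2 at chr6:34819612-34819836 across an intron, and CIITA probe 3, the last along the transcript, at chr6:34817558-34817617, all on the minus strand. B2M probe 1 lies at chr30:14327427-14329295 across an intron and B2M probe 2 at chr30:14329524-14329583, both on the plus strand. On chromosome 12, all on the minus strand, lie the TAP1 probe at chr12:5427506-5427565, TAP2 probe 1 at chr12:5411688-5411747, TAP2 probe 2 at chr12:5411133-5411192, TAP2 probe 3 at chr12:5411132-5411191, TAPBP probe 1 at chr12:5754207-5754266 and TAPBP probe 2 at chr12:5744252-5744311. TAP2 probes 2 and 3 share 59 of their 60 bases and count as 1 measurement.

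CD74 was measured in CMT-U27 alone. The signal of its probe in CMT-U27 was 2917 and 3657 in the monoculture channels of arrays 1 and 2, and 12120 and 13510 in the co-culture channels. The cultures did not overlap, and the ratio of co-culture over monoculture was 2.06 on the log2 scale on array 1 and 1.89 on array 2, a mean of 1.97 or 3.92-fold. The half-range between the dye-exchanged arrays was 0.0851, which measures the technical spread only.

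In P114 the CD74 signal was 8.13 and 9.12 in monoculture and 4.86 and 8.51 in co-culture, and in CMT-U309 it was 1.38 and 2.56 in monoculture and 5.00 and 7.55 in co-culture. None of these 8 channels was well above background, so no fold of co-culture over monoculture is given in either line. After loess and between-channel normalization, CD74 was at least 18.7-fold higher in CMT-U27 than in P114 and at least 21.5-fold higher than in CMT-U309 in monoculture, and at least 82.2-fold and 83.9-fold higher in co-culture, where the dim line was set in each channel at its own signal or at the lowest signal well above background, whichever was higher. In CMT-U309 its own signal was the higher. Each mean holds 1 channel of each dye.

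The mean of the 3 lines was 1.09 on the log2 scale with an SD of 1.31 (n = 3 lines). At the study's thresholds (unadjusted p under 0.05 and more than 2-fold) 1.03% of the 40699 probes tested were higher in co-culture and 0.192% were lower, and none passed an adjusted p of 0.05. The CD74 probe was among those called higher, which is no test of it, since it was chosen for this ratio. The call rested in part on the ratios of P114 and CMT-U309, whose signals were below background. The probe was not called with the methods' t-test, without a trend in the spread, after normexp and loess, without CMT-U27 or without CMT-U309, and was not in the fit restricted to probes well above background on every array.

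**Figure D1:**
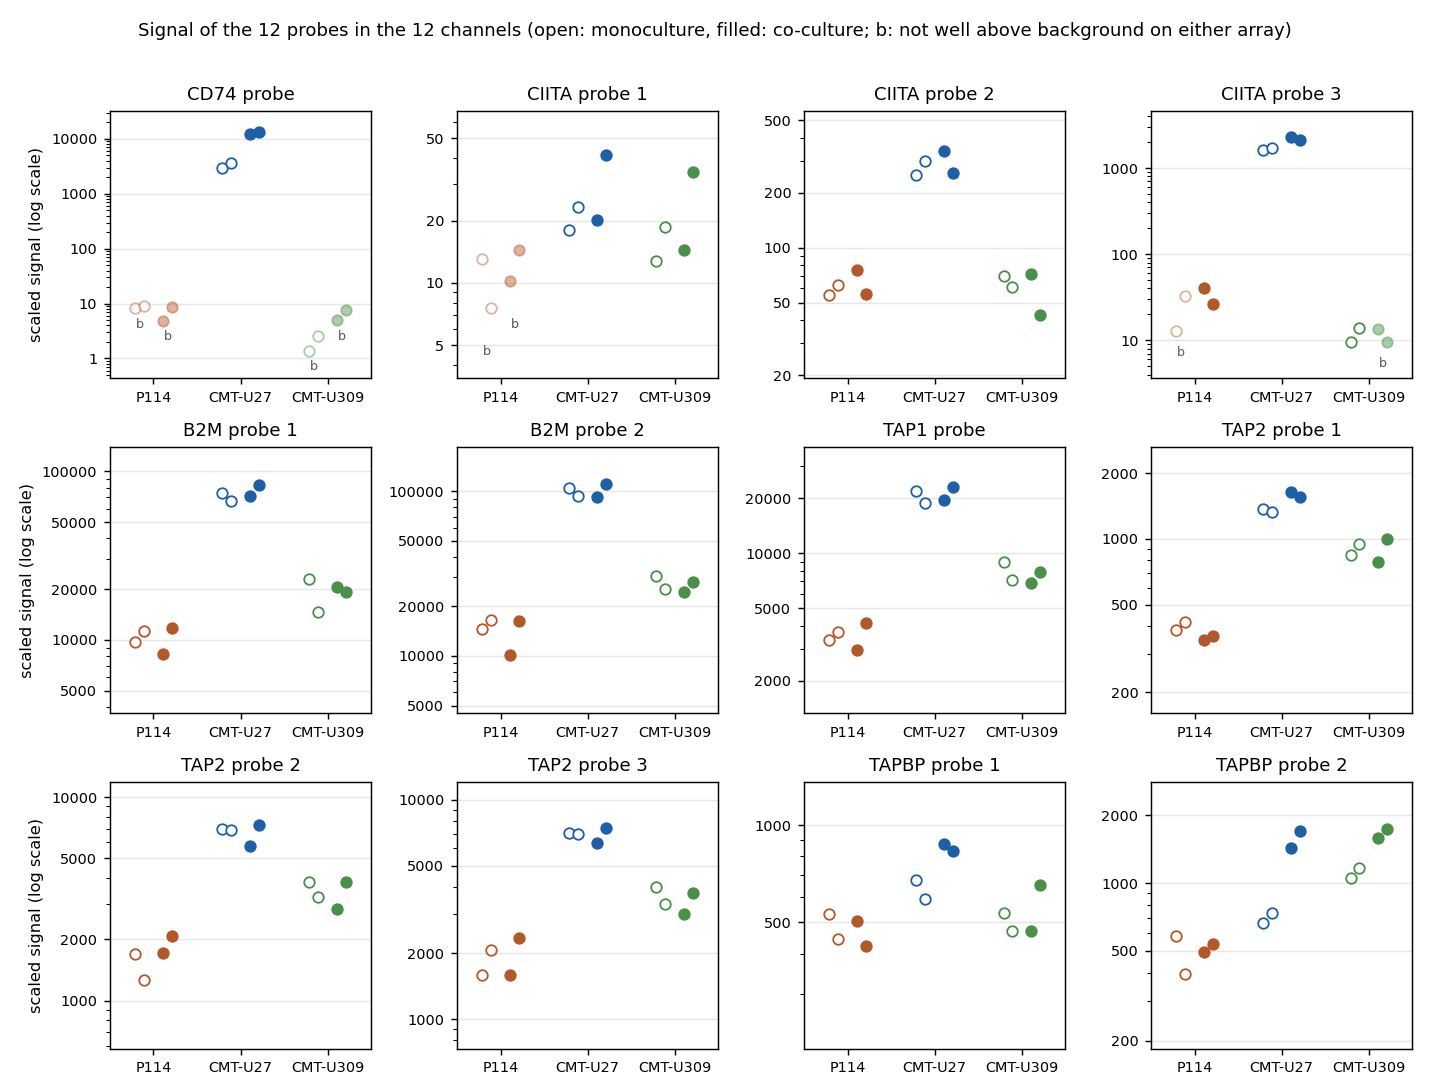
Processed signal scaled to a common median (log axis, arbitrary units) of each of the 12 probes in the 3 lines, with open circles for monoculture, filled circles for co-culture and 1 circle per array; a letter b and paler circles mark a culture in which neither array was well above background. The CD74 probe is between 2917 and 13510 in CMT-U27 and below 10 in every channel of the other lines.

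CIITA, the co-activator of CD74 and the class II chains, was also strongest in CMT-U27. CIITA probe 3 gave 1632 and 1707 in monoculture and 2318 and 2128 in co-culture of CMT-U27, where the cultures did not overlap and the log2 ratios were 0.51 and 0.32. In P114 the same probe gave between 12.7 and 40.0 and in CMT-U309 between 9.55 and 13.8, with 1 of 4 channels of each line well above background. Its signal in CMT-U27 monoculture was at least 8.39-fold that of P114, where it was not well above background.

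CIITA probe 2 gave 249.5 and 300.8 in monoculture and 337.8 and 257.1 in co-culture of CMT-U27, and the cultures overlapped. It lay between 55.4 and 75.9 in P114 and between 42.7 and 71.7 in CMT-U309. CIITA probe 1 was close to background in all lines, with 6 of 12 channels well above it and a highest signal of 41.4. In CMT-U27 the mean log2 ratios of CIITA probes 1, 2 and 3 were 0.50, 0.11 and 0.41.

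B2M, the class I light chain, exceeded background in all 12 channels and was highest in CMT-U27. B2M probe 1 gave 74230 and 66890 in monoculture and 71420 and 83430 in co-culture of CMT-U27, 9740 and 11280 against 8203 and 11700 in P114, and 23030 and 14630 against 20580 and 19340 in CMT-U309. The 2 cultures of each line overlapped, whereas the 4 channels of CMT-U27 lay above all 8 of the other lines. B2M probe 2 showed the same order, from 92720 to 110700 in CMT-U27, from 10080 to 16640 in P114 and from 24480 to 30560 in CMT-U309. The B2M log2 ratios on the 6 arrays ran from -0.25 to 0.40 for probe 1 and from -0.53 to 0.25 for probe 2, with means over the lines of 0.05 (SD 0.129) and -0.11 (SD 0.157).

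TAP1, which encodes one arm of the peptide pump, gave 22100 and 18910 in monoculture and 19730 and 23180 in co-culture of CMT-U27. It lay between 2926 and 4152 in P114 and between 6827 and 8914 in CMT-U309. The lines did not overlap and their cultures did, with log2 ratios from -0.38 to 0.29 over the 6 arrays. For the TAP1 probe, both B2M probes, CIITA probe 1 and TAP2 probes 2 and 3, the ratio was higher on array 2 than on array 1 in all 3 lines, so that it moved with the dye, whereas for CIITA probes 2 and 3 it was higher on array 1 in all 3 lines.

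TAP2, the other arm of the pump, followed the same order of lines with each probe. TAP2 probe 1 gave 1364 and 1330 in monoculture and 1630 and 1561 in co-culture of CMT-U27, where the cultures did not overlap and the log2 ratios were 0.26 and 0.23. In P114 that probe was lower in co-culture on both arrays, with log2 ratios of -0.16 and -0.22. The overlapping TAP2 probes 2 and 3 did not repeat either difference, with mean log2 ratios of -0.10 and -0.03 in CMT-U27. In P114 the log2 ratios on arrays 1 and 2 were 0.03 and 0.72 for probe 2 and 0.00 and 0.19 for probe 3.

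TAPBP, the tapasin bridge between class I molecules and the pump, was the other gene with a difference past 2-fold on both arrays of a line. TAPBP probe 2 gave 668.2 and 735.3 in monoculture and 1433 and 1709 in co-culture of CMT-U27, and the cultures did not overlap. Its log2 ratios were 1.101 and 1.217, a mean of 1.16 or 2.23-fold. This probe is printed 5 times per array, and the SD of the log2 ratio over its spots was 0.0682 on array 1 (4 spots kept) and 0.182 on array 2 (5 spots).

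In CMT-U309 TAPBP probe 2 gave 1050 and 1163 in monoculture and 1583 and 1743 in co-culture, again without overlap, with log2 ratios of 0.59 and 0.58. In P114 the log2 ratios were -0.24 and 0.44, and the cultures overlapped. TAPBP probe 1, which lies nearer the start of the transcript, gave 676.0 and 592.3 in monoculture and 874.3 and 833.6 in co-culture of CMT-U27, a mean log2 ratio of 0.43. The 2 probes of TAPBP thus disagreed in size in CMT-U27, and they ordered the lines differently, since probe 2 was highest in CMT-U309 in monoculture.

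Of the 11 probes of the 6 genes that were well above background in all 4 channels of CMT-U27, CD74 and TAPBP probe 2 were more than 2-fold higher in co-culture on both arrays, where 0.77% of the 24415 probes measured in that line were. As a description of the ratios by which the genes were chosen, CD74 ranked 12 of 24415 by its mean ratio and TAPBP probe 2 ranked 198. TAPBP probe 1 and CIITA probe 3 ranked 2876 and 3103, and the B2M, TAP1 and TAP2 probes and CIITA probe 2 ranked between 5819 and 15111. No probe of the 6 genes was more than 2-fold higher on both arrays of P114 or CMT-U309 where it was measured, against 0.0299% and 0.333% of probes there. The size of the CD74 ratio in CMT-U27 was not shared by B2M, TAP1 or TAP2, and the difference between genes has no replicate check.

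**Figure D2:**
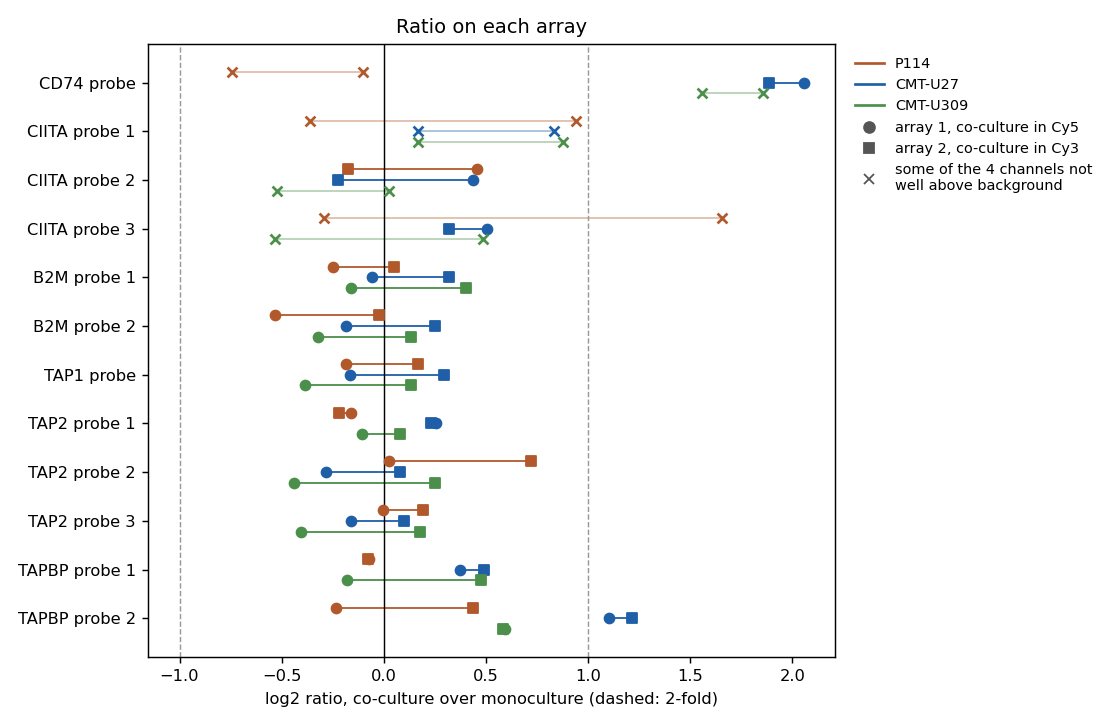
Log2 ratio of co-culture over monoculture of each probe on each array, with circles for array 1, squares for array 2, 1 color per line, and crosses where some of the 4 channels of a line were not well above background. CD74 and TAPBP probe 2 lie past 2-fold on both arrays of CMT-U27, and the 6 probes of B2M, TAP1 and TAP2 lie between -0.53 and 0.72.

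Levels between lines were compared over the 4 channels of each line. For 9 of the 12 probes all 4 channels of CMT-U27 lay above all 8 channels of both other lines, and for none did P114 or CMT-U309 stand above the rest. The share of all 40699 probes with CMT-U27 on top without overlap was 16.4%, that with P114 on top was 7.13% and that with CMT-U309 on top was 6.92%. Among the 24415 probes well above background in CMT-U27 it was 26.5%. The 3 exceptions were CIITA probe 1 and both TAPBP probes. The 9 include both TAP2 probes 2 and 3, which count as 1 measurement. With unscaled signals the count was 5 of 12. P114 and CMT-U309 did not overlap for B2M, TAP1 or TAP2 either, and P114 was the lower of the 2. The share of all probes without overlap between these 2 lines was not computed, so this is a description only.

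CD74 was set beside the rest of the presentation machinery through a list of 60 other genes, of which 51 matched a probe by name and 49 could be tested, each through its brightest probe. The other 9, MIF among them, were not analysed here. The class II chains that CD74 escorts were strong in CMT-U27 and far lower elsewhere. DLA-DRA, the alpha chain of the DR molecule, gave 21110 and 18020 in monoculture and 20720 and 23750 in co-culture of CMT-U27, but between 6.22 and 17.2 in P114 and between 8.41 and 11.1 in CMT-U309. It was at least 84.9-fold higher in CMT-U27 than in P114 in monoculture. HLA-DRB1, its beta chain partner, gave 109900 and 87360 in monoculture and 127000 and 127100 in co-culture of CMT-U27, and no more than 46.8 in the other lines. HLA-DQB1 gave 5691 and 7259 against 9918 and 8620, and HLA-DQA1 900.6 and 1196 against 1488 and 1416, again with far lower signals in P114 and CMT-U309. HLA-DQA1 was still well above background in all 4 channels of each of these 2 lines. Probes of the DLA genes can bind transcripts of near-identical relatives, which limits their assignment to 1 gene.

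The ratios of the class II chains in CMT-U27 were smaller than that of CD74. Of 13 class II chain probes 12 were measured there, and 10 of the 12 were higher in co-culture on both arrays, with none lower on both, where 32.8% of all measured probes were higher on both and 31.7% were lower on both. Their mean log2 ratios ran from 0.10 to 0.79 with a median of 0.49, against 1.97 for CD74, and none was past 2-fold on both arrays. These probes come from 4 genes, of which 3 were higher on both arrays with their brightest probe. HLA-DMA and HLA-DMB, the chains of the molecule that swaps the CD74 fragment for peptide, gave log2 ratios of 0.50 and 0.37 with their brightest probes. HLA-DMB gave 2175 and 2462 in monoculture and 3080 and 2884 in co-culture. CTSB and LGMN, endosomal proteases, gave 0.11 and -0.19 with their brightest probes, but their probes disagreed, with 0.49 for the other CTSB probe and 0.46, 0.40 and -0.15 for the other LGMN probes. Of the 13 measured probes of class II peptide loading genes, 8 were higher on both arrays and 2 were lower on both.

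Class I heavy chains other than DLA-79 were measured in all lines with their brightest probes. The probe named dla88 gave 70700 and 68340 in monoculture and 84010 and 92240 in co-culture of CMT-U27, and 12180 and 11590 against 12340 and 16300 in P114. In CMT-U309 it gave 42470 and 34060 against 25430 and 39750. In CMT-U27 all 9 measured probes of class I chains were higher in co-culture on both arrays, where 32.8% of all measured probes were. They come from 4 genes, and probes of the DLA genes can share transcripts, so they are not 9 separate measurements. Their mean log2 ratios ran from 0.19 to 0.65 with a median of 0.45. DLA-64 and DLA-12 gave 0.45 and 0.65 there with their brightest probes, and FCGRT, the neonatal Fc receptor, gave 0.38. The brightest DLA-12 probe overlapped between 2 lines, from 9674 to 17200 in CMT-U27 and from 7885 to 12710 in CMT-U309. DLA-79 was highest in CMT-U309 with its brightest probe, with 218.9 and 144.1 in monoculture there and no more than 21.7 in either other line. Its other probe did not single out CMT-U309 by detection. That probe was well above background in 3 of 4 channels of P114, 3 of 4 of CMT-U309 and 2 of 4 of CMT-U27.

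The suppliers of class I peptides were likewise strong in CMT-U27. PSMB9, an interferon-inducible proteasome subunit, gave between 27110 and 31410 in CMT-U27, between 1118 and 1626 in P114 and between 2164 and 3060 in CMT-U309. PSMB10, another such subunit, gave between 15510 and 18580 in CMT-U27 and no more than 4591 elsewhere. PSMB8, the third immunoproteasome subunit, named here after its values were seen, ran the other way, with 6.82 to 14.7 in CMT-U27 and 213.6 to 267.7 in CMT-U309. PSME1 and PSME2, subunits of the proteasome activator, gave mean log2 ratios of 0.75 and -0.08 in CMT-U27.

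**Figure D3:**
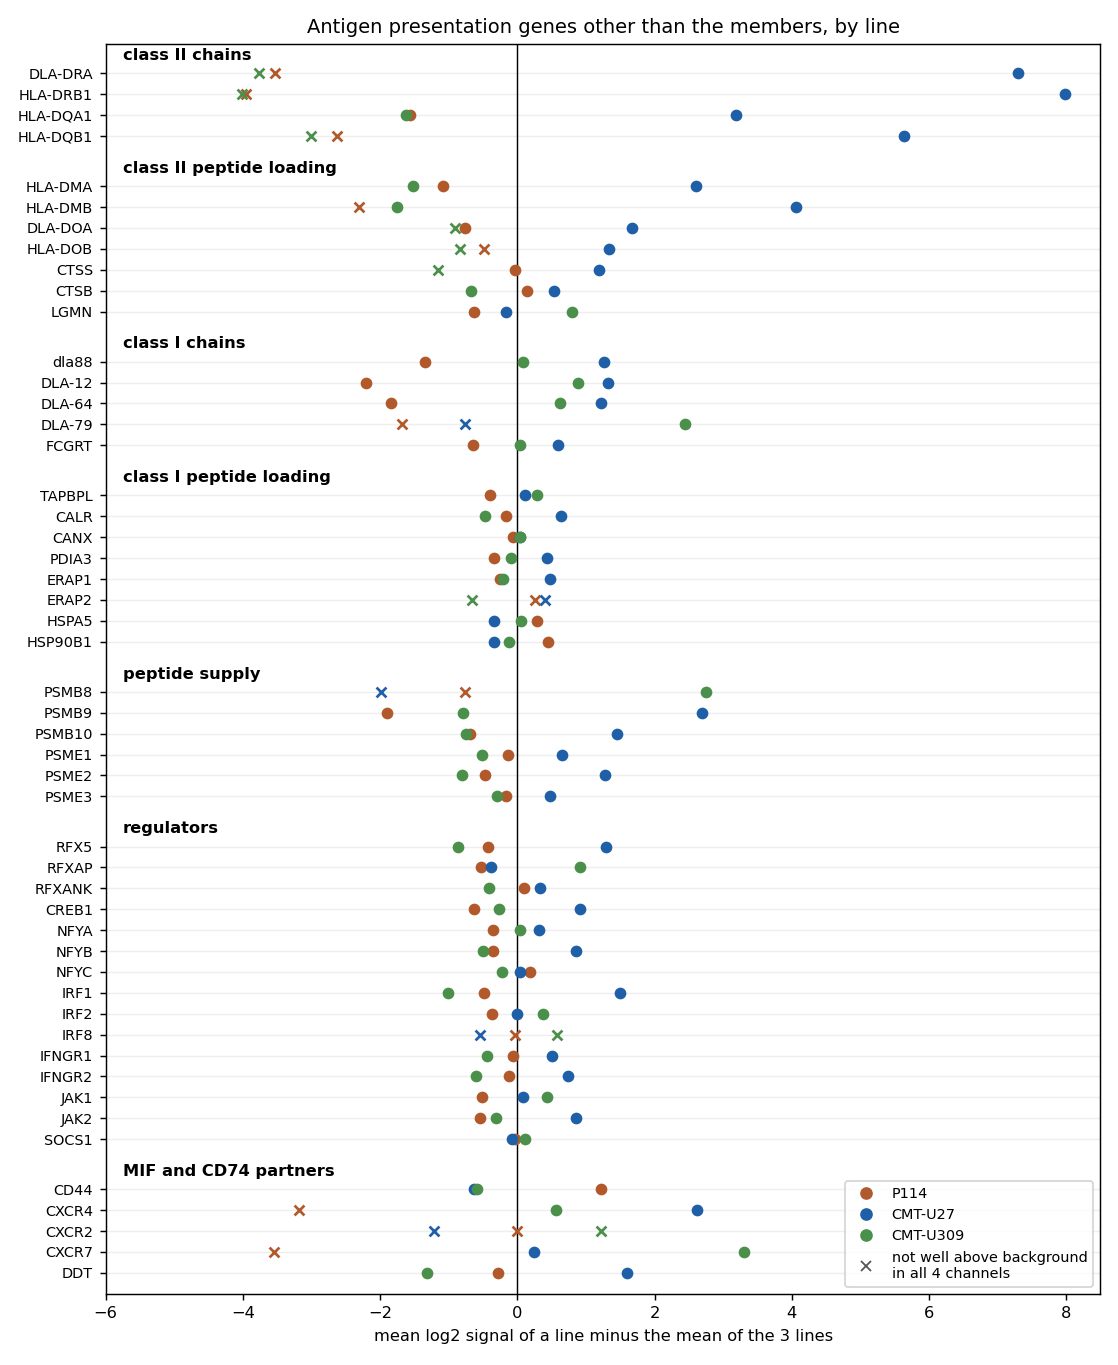
Mean log2 signal of each line over its 4 channels minus the mean of the 3 lines, for the brightest probe of the antigen presentation genes shown, grouped by role; crosses mark lines in which not all 4 channels were well above background. The class II chains and HLA-DMA and HLA-DMB stand apart in CMT-U27, and PSMB8 and DLA-79 are highest in CMT-U309.

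No gene of the list passed the study's thresholds over the 3 lines in limma's fit. At an unadjusted p under 0.05, 8 of 49 genes were higher in co-culture and 4 were lower, where 5.84% and 4.11% of all probes were, and no adjusted p was under 0.05. The genes were counted by their brightest probe, whereas the shares cover probes of all intensities, so the comparison is not like for like. The 8, of which those outside the rule for named genes were named after their values were seen, were HLA-DQB1, HLA-DMB, the class I loading chaperones CALR, PDIA3 and HSPA5, the regulators IRF2 and JAK2, and CD44, a co-receptor of CD74. CALR had a mean log2 ratio of 0.45 (SE 0.105) and PDIA3 of 0.36 (SE 0.12). The SE is limma's moderated one, which draws the spread between line means towards that of all probes at similar intensity. For CALR the SD of the 3 line means was only 0.0414. The SE also leaves out the spread of arrays within a line. The 2 arrays of CMT-U309 gave -0.16 and 1.09 for CALR, and those of P114 gave 1.14 and -0.15 for HLA-DMB. The 4 lower genes were DLA-79, the transcription factor subunits RFXAP and NFYB, and CXCR7, another MIF receptor, with -0.40 (SE 0.18). In P114 none of the 4 channels was well above background for CXCR7 or DLA-79, 2 of 4 were for HLA-DQB1 and 3 of 4 for HLA-DMB. For DLA-79, 2 of 4 were in CMT-U27. These means thus rest in part on background signals. HSP90B1 and CANX, further chaperones of the endoplasmic reticulum, had 0.03 and 0.00. The median over the 49 genes was 0.09 and that over all probes was 0.01. With the methods' t-test the list also gave 0 genes past the thresholds.

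Without P114, limma called 2 genes of the list past the thresholds, IRF2 and ERAP2, in a fit over 2 lines only. That fit also called far more probes of the whole array than the fit with P114, 2104 against 421 higher and 571 against 78 lower. Both genes were higher in co-culture. The fit with P114 tested 49 genes of the list and 40699 probes. Set against these numbers, the share of the list called higher was below that of all probes called higher. The list thus did not stand out in the fit without P114. The genes were counted by their brightest probe and the shares were not tested, so the 2 genes are a description only. ERAP2, a peptide trimming enzyme, lay at background throughout. IRF2, an interferon regulatory factor that binds the CIITA promoter, had a log2 ratio of 1.09 over CMT-U27 and CMT-U309 with an adjusted p of 0.00412 in that limma fit. Its signal was 41.1 and 45.5 in monoculture and 80.3 and 110.0 in co-culture of CMT-U27, and 56.0 and 59.95 against 115.7 and 125.3 in CMT-U309. In P114 the log2 ratios were -0.99 and 0.74.

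Among the other regulators with the brightest probes, IFNGR2, a chain of the interferon gamma receptor, had a mean log2 ratio of -0.10 in CMT-U27, RFXANK -0.11 and NFYC -0.04. JAK1 and NFYA had a spot set aside on 1 array and were not tested. RFX5, the DNA-binding subunit that recruits CIITA, gave 1406 and 1406 in monoculture of CMT-U27 and no more than 488.4 in the other lines. RFX5 and DLA-79 were chosen after their values were seen. Of the partners of CD74, DDT, a relative of MIF, gave 20900 and 24580 against 36190 and 31150 in CMT-U27. CXCR4, a receptor that pairs with CD74, gave 360.8 and 331.2 against 355.9 and 446.3 there and was not well above background in P114. CD44 gave 568.3 and 421.3 against 558.5 and 747.2.

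**Figure D4:**
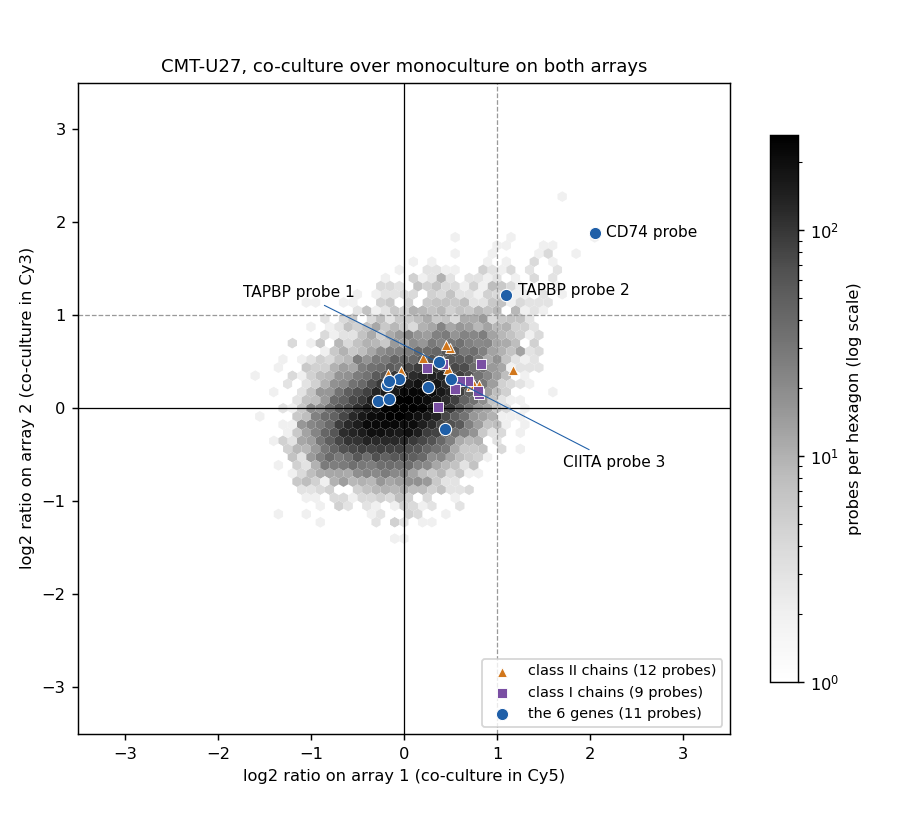
Log2 ratio of co-culture over monoculture in CMT-U27 on array 1 against array 2, with all 24415 measured probes as gray hexagons shaded by their number on a log scale, and probes of the 6 genes (circles), class II chains (triangles) and class I chains (squares). CD74 lies at 2.06 and 1.89, apart from the class II and class I chains.

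The identity of the lines and signs of other cells were read from marker genes. Of the 4 epithelial markers with a probe, 3 were highest in CMT-U27, where EPCAM lay between 36680 and 54220 and KRT19 between 50380 and 80140, and CDH1, the epithelial cadherin, between 184.2 and 254.9. KRT14, a basal keratin, ran the other way, with 1604 to 2966 in CMT-U27, 2899 to 4436 in P114 and 4205 to 7455 in CMT-U309. The mesenchymal markers VIM, SPARC, CDH2, COL1A1, COL1A2 and COL3A1 were highest in P114 and CMT-U309, with VIM between 72180 and 141200 there and between 983.3 and 1317 in CMT-U27.

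Myeloid markers were read because the inserts held MDSCs. Of 18 such markers 15 matched a probe. In CMT-U27, 8 of the 15 lay at background in every channel, among them the MDSC marker ITGAM (CD11b), the pan-leukocyte marker PTPRC, SPI1, CSF1R and LYZ, while TYROBP was well above background in 2 of 4 channels. The summed signal of the 15 lay between 12990 and 13160 in monoculture and between 19790 and 20140 in co-culture of CMT-U27, and so moved with CD74. Most of that sum was S100A8, a calcium-binding protein of neutrophils that epithelia also make, with 6116 and 6616 against 11300 and 11670, and LCP1, an actin bundler, with 4859 and 4795 against 5787 and 6167. S100A9 gave 385.9 and 408.3 against 691.4 and 690.1. CD68, CD86 and ITGB2 gave similar signals in all 3 lines, from 51.0 to 1488.

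The B cell marker MS4A1 lay at background throughout. CD79A and CD79B lay between 29.3 and 93.5 over all channels, with no line on top. Of the T cell markers, CD3E, CD3D, CD4 and CD8A lay between 4.25 and 105.4.

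The genes whose signal most resembled that of CD74 over the 12 channels, among 7916 genes well above background throughout, were HHAT (r = 0.994), NAGK (r = 0.994), SULT1A1, PI4KB and TARS2 (r = 0.993 each). Of the 6 genes, CIITA probe 3 had r = 0.980, CIITA probe 2 0.949 and B2M probe 1 0.897. Over the 6 ratios the closest were IRF2BP1 (r = 0.998), CPSF1, DVL3, MAF1 and PCBP4. These are descriptions over points that share cultures, slides and dyes. In 8 of the 12 channels and 4 of the 6 arrays the CD74 value was itself below background.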

How the data were processed

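RNA of 3 canine mammary tumor lines, each in monoculture and in co-culture with MDSCs, was measured on 6 2-colour Agilent canine arrays. The scanner files hold the spot intensity that the authors' Agilent Feature Extraction software processed (version 10.10.1.1 per the file headers, 10.7.3.1 per the submitters' processing notes), that is background-subtracted and dye-normalized, with canFam2 positions. The table of the series holds deposited log10 ratios, which equalled the scanner files' log10 ratio of co-culture over monoculture within 4.997e-06 and were used as an alternative.

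The members, lists and tests were chosen with earlier results of these data known. Control spots and spots marked as outliers by the software were left out. Channels were brought to one median, log2 ratios were turned to co-culture over monoculture, spots of a probe and then both arrays of a line were averaged, and a probe had to exceed an intensity of 10 in at least 1 channel. The 3 line means of 40699 probes were compared with 0 by limma 3.58.1 under R 4.3.3 (eBayes with trend, two-sided), and Benjamini-Hochberg adjustment covered all probes. Probes were called at an unadjusted p under 0.05 and more than 2-fold, the thresholds of the methods. On simulated data the fit recovered 98 of 100 probes changed by 2 and 100 of 100 changed by 4 on the log2 scale, and it also called 247 unchanged probes. Files give no counts, and the number of arrays limits the precision. No culture was repeated within a line. The p-values of limma rest on the spread between lines, moderated towards that of all probes. Bounds between lines used normexp (offset 50), loess and Aquantile.

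Named genes were all member probes; of the presentation list, every gene past the thresholds and otherwise up to 4 genes of a role with the highest signal; the 5 genes most like CD74 by signal and by ratio; and markers well above background in at least 6 channels. Alternatives were normexp with loess, the deposited ratios, no scaling, no intensity filter, probes well above background only, outlier spots kept, each line left out, the methods' t-test, no trend, and fits over 6 arrays with and without a replicate block. Gene names are those of the array design. All 6 names, and 11841 of the 13685 symbols, occur in RefSeq's gene table of the assembly UU_Cfam_GSD_1.0, whose coordinates were not used. Some genes of the lists are not reported here.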

Additional observations from a re-analysis of the deposited data

Results flagged for a closer look

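For TAP2 probe 1, both arrays of CMT-U27 were higher in co-culture and both arrays of P114 were lower, a difference of 0.432 on the log2 scale between the line means. TAPBP probe 1 did the same between these lines, with a difference of 0.506. Neither difference was tested, since each line has 1 pair of cultures, and the other probes of TAP2 did not show it.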

How the results depend on the processing

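The mean log2 ratio of CD74 over the 3 lines ran from 0.64 without CMT-U27 to 1.84 without P114, and was 0.65 after normexp and loess. In CMT-U27 it lay between 1.96 and 1.98 under the other ratio settings in which the probe was kept, and TAPBP probe 2 between 1.04 and 1.16. The median of the other 11 probes, 0.05 as reported, ran from 0.01 to 0.12 when a line was left out. The count of the 12 probes highest in CMT-U27 without overlap, 9 as reported, was 5 with unscaled signals, 8 after Aquantile, 11 on the arrays with co-culture in Cy5 and 9 on the others. Genes of the list past the thresholds numbered 0 to 2 when a line was left out, and 0 under all other settings. Of the values of single probes in CMT-U27 under these settings, 65 moved by less than the SD of the 2 arrays and 4 by more. All 4 came from normexp and loess, for CIITA probe 1, TAP2 probe 1 and both TAPBP probes. The other settings left a probe's ratio in CMT-U27 unchanged or nearly so, so most of the 65 had little room to move.

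Against 421 probes higher and 78 lower over the 3 lines, the counts were 30 and 26 with only probes well above background, 83 and 35 with the methods' t-test, and 3 and 0 after normexp and loess. The deposited ratios gave 280 higher and the fit of 6 arrays without a replicate block 270 higher. Leaving out a line moved them between 122 and 2104 higher and between 92 and 571 lower, and the extremes were without CMT-U27 and without P114. Replicate numbers mark the dye and not a shared culture. With the replicate block the counts were 464 and 78, and CD74 had 1.09. Of same-numbered arrays, those of number 2 correlated at 0.466 to 0.612 across lines and those of number 1 at -0.222 to 0.398, so not every pair of same-numbered arrays, which share the dye orientation, deviated together. The causes were not tested.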
